A study of Mus musculus with 12 samples.

Results

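The ribosomal protein genes of HC11 cells were examined in RNA taken from Snail1 knockdown and control aggregates in an in vitro migration assay. HC11 is a mouse mammary epithelial line, and Snail1, encoded by Snai1, is a transcriptional repressor known for its part in epithelial plasticity. Members were all rows of the deposited gene table whose symbol has the form of a cytosolic (Rpl, Rps, Rplp or Rpsa) or a mitochondrial (Mrpl or Mrps) ribosomal protein, with rows named as pseudogenes left out. The rule found 167 of 57180 rows, 89 cytosolic and 78 mitochondrial, and used no measured value. Of these, 83 cytosolic and 78 mitochondrial genes reached 1 TPM in at least 3 of the 12 libraries and were tested. TPM is a transcript level scaled for gene length and library total.

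The 4 groups hold 3 libraries each: Snail1 knockdown at 36 h, control at 36 h, Snail1 knockdown at 0 h and control at 0 h. Control cells carry the genotype label WT and the title scr, and every group went through flow sorting and overnight culture with EGF and insulin to form aggregates before the assay. The authors' mean columns of the knockdown groups are headed sh_snail1, which may stand for a short hairpin RNA. The sample labels do not otherwise state how the knockdown was made, or whether the cells are 1 clone. Nothing in the labels ties the libraries to separate cultures, so the p-values reflect spread among samples that may be technical repeats. Control 36 h library 4 carries the unexplained word "mix" in its title, and should it be a pool, n = 3 overstates the replication of its group.

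Cytosolic ribosomes translate nuclear-encoded mRNA, and their proteins are assembled with ribosomal RNA in the nucleolus. Mitochondrial ribosomes are built from proteins made in the cytosol and imported, and they translate the few mRNAs of the mitochondrial genome, all for subunits of the respiratory chain. Many cytosolic ribosomal protein mRNAs begin with a C followed by a run of pyrimidines, the 5′ terminal oligopyrimidine (TOP) motif, through which mTOR signalling and LARP1 act on their translation and stability. In growing mammary epithelium both sets are known as abundant housekeeping transcripts.

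Snai1 had 0.58, 0.44 and 0.20 TPM in knockdown libraries at 36 h, against 2.77, 2.69 and 3.92 TPM in control libraries. At 0 h it had 0.58, 0.79 and 0.48 TPM in knockdown libraries, against 1.34, 2.51 and 1.69 TPM in control libraries. It fell by 1.55 at 36 h and by 0.80 at 0 h on the log2(TPM + 1) scale (limma, adjusted p = 0.0105 and 0.0348), so the targeted gene went with its labels at both times. The 36 h call was lost without knockdown 36 h library 2 or 3 or control 36 h library 4, and the 0 h call without knockdown 0 h library 1, knockdown 36 h library 2 or any control 0 h library. Both calls were lost with the replicate number as a block. The 0 h call was also lost with median-of-ratios scaling, with no filter and with only the groups compared. All knockdown values of Snai1 lay under 1 TPM. Knockdown 0 h library 2 stood apart from the other 11 libraries. Mitochondrially encoded genes held 14.0% of its TPM, against 1.45% to 6.15% in the others, and rows shorter than 300 bases held 10.6%, against 2.32% to 5.23%. Krt14, Krt5, Krt8, Krt18, Epcam and Cdh1, the epithelial markers, were all detected, with a summed level of 19472 to 25456 TPM in knockdown 36 h, 15897 to 18764 TPM in control 36 h, 3325 to 10276 TPM in knockdown 0 h and 10063 to 10278 TPM in control 0 h. Of 5 immune markers 1 was listed at 0 throughout, and their sum stayed at or under 2.83 TPM in every library. Sums of 4 fibroblast markers ranged from 3.76 to 22.8 TPM and those of 4 endothelial and adipocyte markers, 1 of them listed at 0 throughout, from 0.51 to 7.04 TPM.

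The promoters of 4 mitochondrial members that moved at 0 h are shown first, to let the motif common to both classes be seen in place. The windows run from 90 bases before to 30 bases after the RefSeq gene start in build GRCm38.p6, each printed along its gene, with every CTTCCG or its complement CGGAAG, the core that ETS factors such as GABPA recognise, in capitals. Mrpl22 lies on the plus strand at chr11:58171574-58171693, Mrpl34 on the plus strand at chr8:71464836-71464955, Mrpl57 on the plus strand at chr14:57826149-57826268 and Mrps33 on the minus strand at chr6:39810907-39811026.
Mrpl22: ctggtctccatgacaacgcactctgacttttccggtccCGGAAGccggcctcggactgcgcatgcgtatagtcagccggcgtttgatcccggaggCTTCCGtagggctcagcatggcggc
Mrpl34: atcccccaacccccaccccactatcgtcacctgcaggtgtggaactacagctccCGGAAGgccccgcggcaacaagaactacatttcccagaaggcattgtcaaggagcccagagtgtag
Mrpl57: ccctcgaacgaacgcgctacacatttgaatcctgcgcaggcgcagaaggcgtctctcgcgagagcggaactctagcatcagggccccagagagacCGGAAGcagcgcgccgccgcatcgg
Mrps33: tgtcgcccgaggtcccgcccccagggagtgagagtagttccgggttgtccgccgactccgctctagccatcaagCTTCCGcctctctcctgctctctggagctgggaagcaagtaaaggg

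Mrpl22 fell in the knockdown at 0 h and the other 3 rose. These 4 windows were printed to show the motif, so its presence in them is no result. Among other members that moved at 0 h, the same windows of Mrpl52 and Rps25 hold 2 matches and 1, and those of Mrps11, Mrps14 and Rpl13a hold none. The share of all genes with the motif in this window was not counted. Over the whole 300 bases of the RefSeq promoter table, on both strands, CTTCCG was present in 45 of 76 cytosolic promoters (59.2%) and 40 of 75 mitochondrial promoters (53.3%), against 30.9% of the 12530 promoters of all tested genes and 16.9% of all 32851 promoters. The table held 64 of the 89 cytosolic and 69 of the 78 mitochondrial genes, some with more than 1 promoter. The shorter GGAAG, which overlaps CGGAAG, was present in 93.4% of cytosolic, 78.7% of mitochondrial and 76.0% of tested-gene promoters.

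Between the classes, the TOP-like start was found in a minority of cytosolic promoters and in no mitochondrial one. A C at the annotated start with 4 pyrimidines after it was found in 14 of 76 cytosolic promoters (18.4%) and in 0 of 75 mitochondrial promoters, against 2.42% of the promoters of tested genes. Examples are shown with the C and its pyrimidine run in capitals, in windows of 30 bases on either side of the start. In build GRCm38.p6, Rplp2 is on the plus strand at chr7:141447621-141447680, Rps21 on the plus strand at chr2:180257349-180257408, Rps27 on the minus strand at chr3:90213619-90213678 and Rps6 on the minus strand at chr4:86857338-86857397.
Rplp2: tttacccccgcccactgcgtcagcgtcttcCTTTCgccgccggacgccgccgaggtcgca
Rps21: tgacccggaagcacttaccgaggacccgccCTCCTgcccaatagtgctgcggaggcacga
Rps27: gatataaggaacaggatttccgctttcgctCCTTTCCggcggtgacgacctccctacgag
Rps6: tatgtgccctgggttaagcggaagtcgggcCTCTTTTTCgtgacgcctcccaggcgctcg

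The runs were 5 bases long in Rplp2 and Rps21, 7 in Rps27 and 9 in Rps6. These matches describe the annotated start only, and a start placed a few bases away would miss the motif.

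The cytosolic class was the larger in every library. The median over cytosolic members of the average level in the 12 libraries was 532 TPM, and mitochondrial members averaged 15.6 to 534 TPM with a median of 99.4 TPM. Among the highest cytosolic levels were those of Rpl13 (2719 TPM) and Rpl41 (2442 TPM), and the highest mitochondrial ones were those of Mrpl33, Mrps21 and Mrpl58, a peptidyl-tRNA hydrolase built into the large subunit that frees stalled mitochondrial ribosomes. The lowest tested cytosolic levels were those of Rps3a3 (0.704 TPM), Rpl5 (14.9 TPM) and Rpl12 (23.8 TPM). Rpl5 binds 5S RNA together with Rpl11, whose own level was 182 to 379 TPM. The lowest mitochondrial levels were those of Mrpl1 (15.6 TPM), Mrpl47 (20.9 TPM) and Mrpl19 (24.1 TPM). Ribosomal protein pseudogenes share sequence with their parents, and 63 of the 83 tested cytosolic members have pseudogene rows of their own in the table, so these levels are uncertain where reads were split. Only 4 mitochondrial members have such rows.

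Tissue-restricted paralogs were at or near 0. Rpl39l and Rps4l were listed at 0 in every library, and Rpl10l and Rpl3l, paralogs known from testis and from striated muscle, did not exceed 0.08 and 0.34 TPM. Rpl6l and Rpl32l did not exceed 0.76 and 0.39 TPM. Paralogs that are used more widely were present: Rps27l had 642 to 1474 TPM beside 914 to 3463 TPM of Rps27, and Rpl22l1 had 104 to 367 TPM beside 139 to 902 TPM of Rpl22.

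Summed cytosolic levels ran from 39003 to 58973 TPM in all libraries but 1. They were 53748, 53139 and 53059 TPM in knockdown libraries at 36 h, against 47026, 57064 and 56790 TPM in control libraries 1, 3 and 4. At 0 h they were 54689, 127454 and 58973 TPM in knockdown libraries 1, 2 and 3, against 47178, 51826 and 39003 TPM in control libraries. The groups overlapped at 36 h and did not overlap at 0 h, where library 2 of the knockdown was more than double any other library. Cytosolic genes held 12.7% of the TPM of that library, against 3.90% to 5.90% in the other 11.

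Summed mitochondrial levels varied less. They were 9949, 10292 and 9724 TPM in knockdown libraries at 36 h, against 8855, 9682 and 9000 TPM in control libraries. At 0 h they were 11598, 8314 and 10958 TPM in knockdown libraries, against 9146, 9363 and 9963 TPM in control libraries. At 36 h all 3 knockdown sums lay above the 3 control sums, and at 0 h knockdown libraries 1 and 3 lay above the controls and library 2 below them. The ratio of cytosolic to mitochondrial sums averaged 5.34 ± 0.156 in knockdown and 5.84 ± 0.502 in control at 36 h (SD, n = 3 each). At 0 h it averaged 8.48 ± 5.95 in knockdown and 4.87 ± 0.848 in control (SD, n = 3 each), and 5.05 in knockdown without library 2, whose own ratio was 15.3. In bulk RNA, fewer cells of a type and less RNA per cell cannot be told apart.

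**Figure D1:**
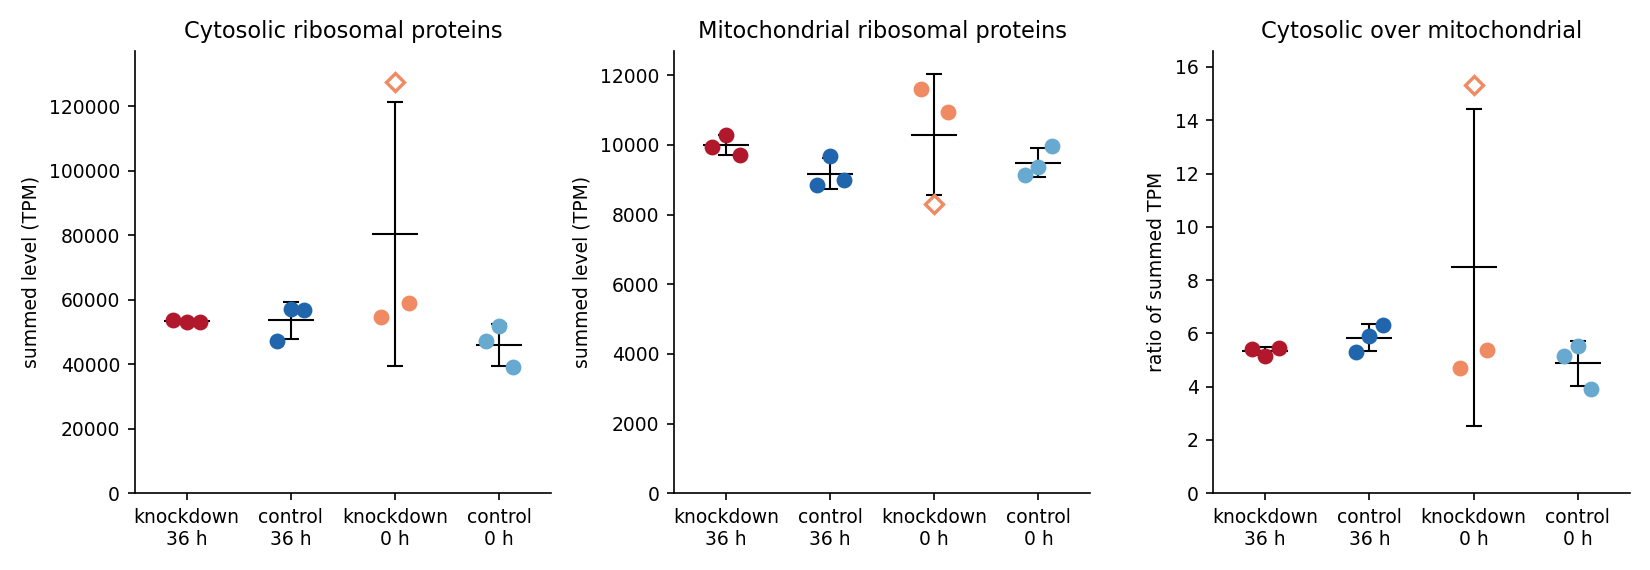
Summed TPM of the cytosolic members (left), of the mitochondrial members (middle) and their ratio (right) in each library, by group, with bars for mean ± SD (n = 3). The open diamond is knockdown 0 h library 2, which has the highest cytosolic sum (127454 TPM), the lowest mitochondrial sum (8314 TPM) and a ratio of 15.3 against 3.91 to 6.31 in the other 11 libraries.

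Within knockdown 0 h library 2 the classes moved apart. Relative to the mean of knockdown libraries 1 and 3, on the log2(TPM + 1) scale, cytosolic members had a median difference of 1.19 (range −2.32 to 2.98) and mitochondrial members one of −0.69 (range −2.01 to 1.38). Over all tested genes the median was −0.74, so the mitochondrial class lay near the bulk of genes and the cytosolic class well above it. In 75 of 83 cytosolic members library 2 was higher than both other libraries of its group, and in 73 it had the highest level of the 12 libraries. In 66 of 78 mitochondrial members it was lower than both, and in 50 it had the lowest level of the 12.

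The shift was not uniform among cytosolic genes. The 7 members lower in library 2 than in both others were Rpl13, Rpl4, Rpl7l1, Rps19, Rps3a1, Rps3a2 and Rps6, named after their values were seen. The stalk proteins, which recruit elongation factors, show the spread: Rplp2 had 2957 TPM in library 2 against 715 and 706 TPM in libraries 1 and 3, and Rplp1 had 3218 TPM against 810 and 996 TPM. Rplp0, their anchor on the large subunit, had 883 TPM against 711 and 733 TPM. Rps6, the classic substrate of S6 kinase, had 596 TPM against 673 and 745 TPM.

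Gene length went with part of the shift in library 2. Over all tested genes the median difference was −0.01 for 2499 genes shorter than 1000 bases and −0.85 for 11927 longer ones. Mitochondrial members showed the same order (−0.44 for 24 short and −1.07 for 54 long members). Cytosolic members had the other order at this cut, with a median of 1.14 for 59 short and 1.35 for 24 long members. Across members, Spearman's rho of the difference with length was −0.12 in the cytosolic and −0.25 in the mitochondrial class, as a description from 1 library. The cytosolic rho thus has the sign opposite to the order of its medians. Length is that of the gene in the deposited table and need not be that of the transcripts expressed. The part of transcript length, RNA quality or library preparation in the profile of library 2 was not tested.

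**Figure D2:**
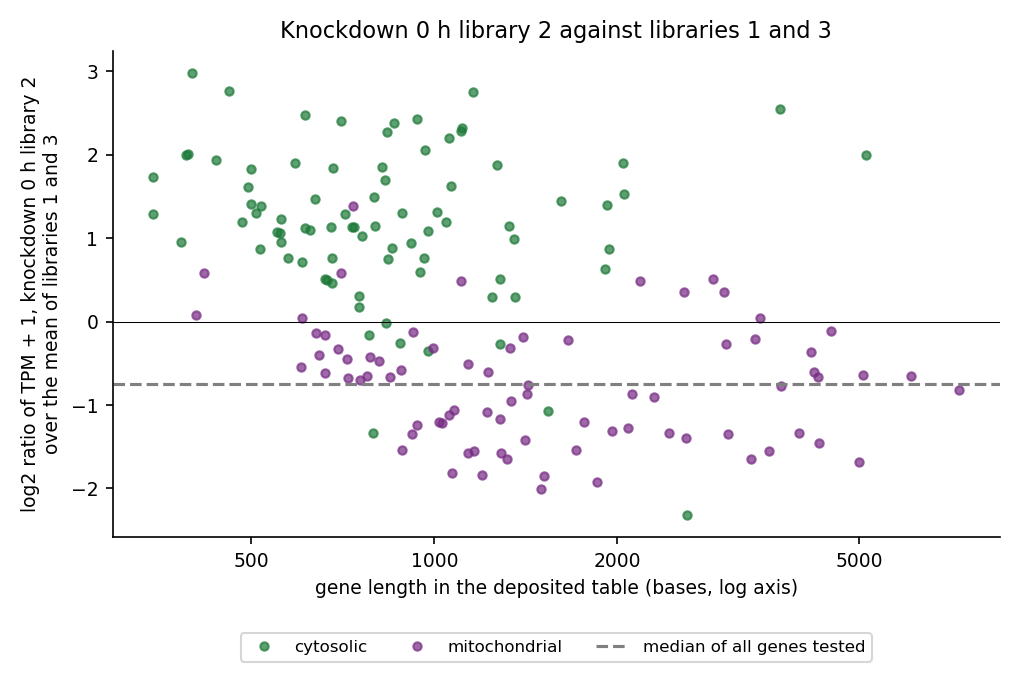
Each point is 1 tested member, placed by gene length in the deposited table (log axis) and by the log2 ratio of TPM + 1 in knockdown 0 h library 2 over the mean of libraries 1 and 3. Most cytosolic points lie above 0 at all lengths (median 1.19), while most mitochondrial points lie below 0 (median −0.69), near the dashed median of all genes tested (−0.74).

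At 0 h cytosolic members lay above the bulk of genes in the knockdown. In the fit of all 12 libraries 9 of 83 cytosolic members rose and 0 fell, and 6 of 78 mitochondrial members rose and 2 fell (limma, Benjamini-Hochberg adjusted p under 0.05). Of all 14426 tested genes 3.1% rose and 14.6% fell. At an unadjusted p under 0.05 the limma counts were 44 higher and 2 lower in the cytosolic class, and 13 higher and 5 lower in the mitochondrial class, against 7.28% higher and 30% lower over all tested genes. The median log2 change, knockdown minus control, was 0.67 in cytosolic members, −0.03 in mitochondrial members and −0.41 over all tested genes. With median-of-ratios scaling these medians became 1.14, 0.43 and −0.02, so the mitochondrial median was above that of all genes under either scaling while its own sign turned. That sign also turned when TPM were rescaled without mitochondrially encoded genes (0.03) or without ribosomal protein genes (0.03).

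Without knockdown 0 h library 2 the classes came close to each other. Then 16 of 82 cytosolic members rose and 2 fell, and 26 of 78 mitochondrial members rose and 5 fell, against 6.84% of all 14227 tested genes that rose and 16.8% that fell. The medians were 0.30 in the cytosolic class, 0.21 in the mitochondrial class and −0.17 over all genes. All 9 cytosolic rises of the full fit passed again without library 2. Among the fits that leave out 1 library, calls were fewest without a control 0 h library. Cytosolic calls then numbered 0, 2 and 0 without control library 1, 2 or 3, and mitochondrial calls 1, 2 and 1. Leaving out 1 of the 6 libraries at 36 h left 3 to 5 cytosolic calls. Without knockdown 0 h library 1 or 3 there were 30 and 40. Mitochondrial calls numbered 3 without knockdown 36 h library 2, and also 3 without control 36 h library 4.

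**Figure D3:**
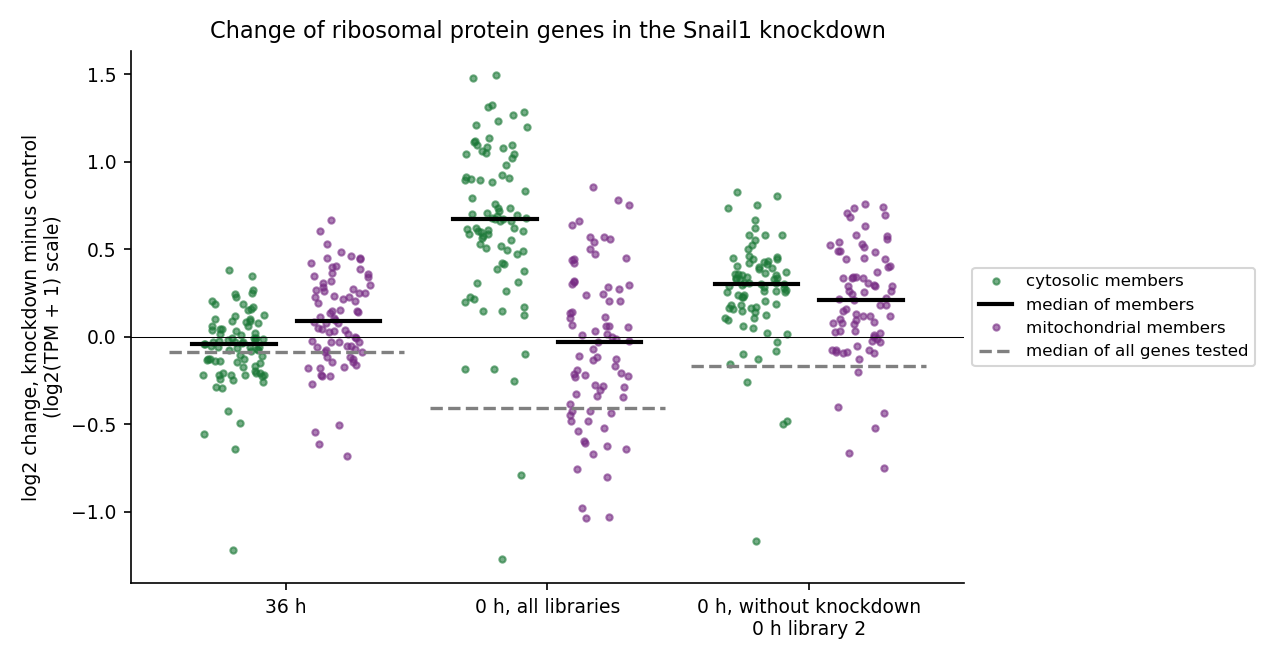
Log2 change of each tested member (knockdown minus control) at 36 h, at 0 h with all libraries and at 0 h without knockdown 0 h library 2, with cytosolic members in green and mitochondrial members in purple. Black lines mark the class medians (cytosolic −0.04, 0.67 and 0.30; mitochondrial 0.09, −0.03 and 0.21) and dashed lines the median of all genes tested (−0.09, −0.41 and −0.17).

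The cytosolic rises at 0 h came from both subunits. Rps21, a small subunit protein, had 456, 2037 and 555 TPM in knockdown libraries, against 286, 341 and 234 TPM in control libraries, a log2 change of 1.50 (SE 0.444, adjusted p = 0.0406, limma). Rpl22, an RNA-binding large subunit protein that is dispensable for translation, had 312, 902 and 313 TPM in knockdown libraries, against 199, 205 and 139 TPM in control libraries (log2 change 1.31, adjusted p = 0.0327, limma). Neither gene's groups overlapped, and without library 2 the changes were 0.82 and 0.80 (adjusted p = 0.0100 and 0.0148, limma).

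Rpl13a, also known as part of a complex that silences inflammatory mRNAs, had 927, 2189 and 985 TPM in knockdown libraries, against 580, 695 and 467 TPM in control libraries. Its log2 change was 1.14 (adjusted p = 0.0236, limma), and 0.74 without library 2. Rps27a, made as a fusion with ubiquitin, changed by 1.12 (adjusted p = 0.0485, limma), or 0.62 without library 2, and Rpl36 by 1.08 (adjusted p = 0.0227, limma). Rps14 at 0.69 and Rps25 at 0.60 were also among the rises. Of the calls named here Rpl13a and Rpl36 held in 10 of the 12 fits that leave out 1 library, Rps14 in 9, Rpl22 in 8, and Rps21, Rps25 and Rps27a in 3. Without control 0 h library 1 or 3 all 9 were lost. Among the genes named above, Rplp0, Rplp1, Rplp2, Rpsa, Rpl5, Rpl11 and Rps6 did not pass. Large and small subunits had like medians, 0.67 over 48 genes and 0.69 over 35 genes.

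The 6 mitochondrial rises at 0 h ran from 0.57 to 0.86. Mrps33, a small subunit protein without a bacterial counterpart, had 199, 266 and 180 TPM in knockdown libraries, against 109, 115 and 127 TPM in control libraries. Its log2 change was 0.86 (SE 0.187, adjusted p = 0.0134, limma), and the groups did not overlap. Mrpl34, a small protein of the large subunit, had 142, 146 and 142 TPM in knockdown libraries, against 83.5, 89.5 and 81.3 TPM in control libraries (log2 change 0.75, adjusted p = 0.0143, limma). Library 2 was level with its group there. Mrpl52, Mrpl57, Mrps16 and Mrps14 changed by 0.78, 0.66, 0.64 and 0.57. Mrps33 passed in 10 of the 12 fits that leave out 1 library (not without control 0 h library 1 or 2), and so did Mrpl34 (not without control 0 h library 1 or 3). Mrpl57 and Mrps16 passed in 7, Mrpl52 in 6 and Mrps14 in 2, and each of these 4 was lost without control 0 h library 1, 2 or 3.

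The mitochondrial falls at 0 h were Mrps11 and Mrpl22. Mrpl22, which lines the exit tunnel of the large subunit, had 91.4, 52.2 and 76.8 TPM in knockdown libraries, against 135, 140 and 151 TPM in control libraries. Its log2 change was −0.98 (SE 0.212, adjusted p = 0.0131, limma), it was −0.75 without library 2, and it passed in 11 of the 12 fits that leave out 1 library (adjusted p = 0.053 without control 0 h library 3) but not with median-of-ratios scaling. Mrps11, a protein of the small subunit platform, had 21.8, 11.4 and 30.3 TPM in knockdown libraries, against 40.6, 39.5 and 43.9 TPM in control libraries (log2 change −1.03, adjusted p = 0.0337, limma). Without library 2 its change was −0.66 (adjusted p = 0.0143, limma), and it passed in 6 of those fits. In both genes every knockdown library lay below every control library.

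**Figure D4:**
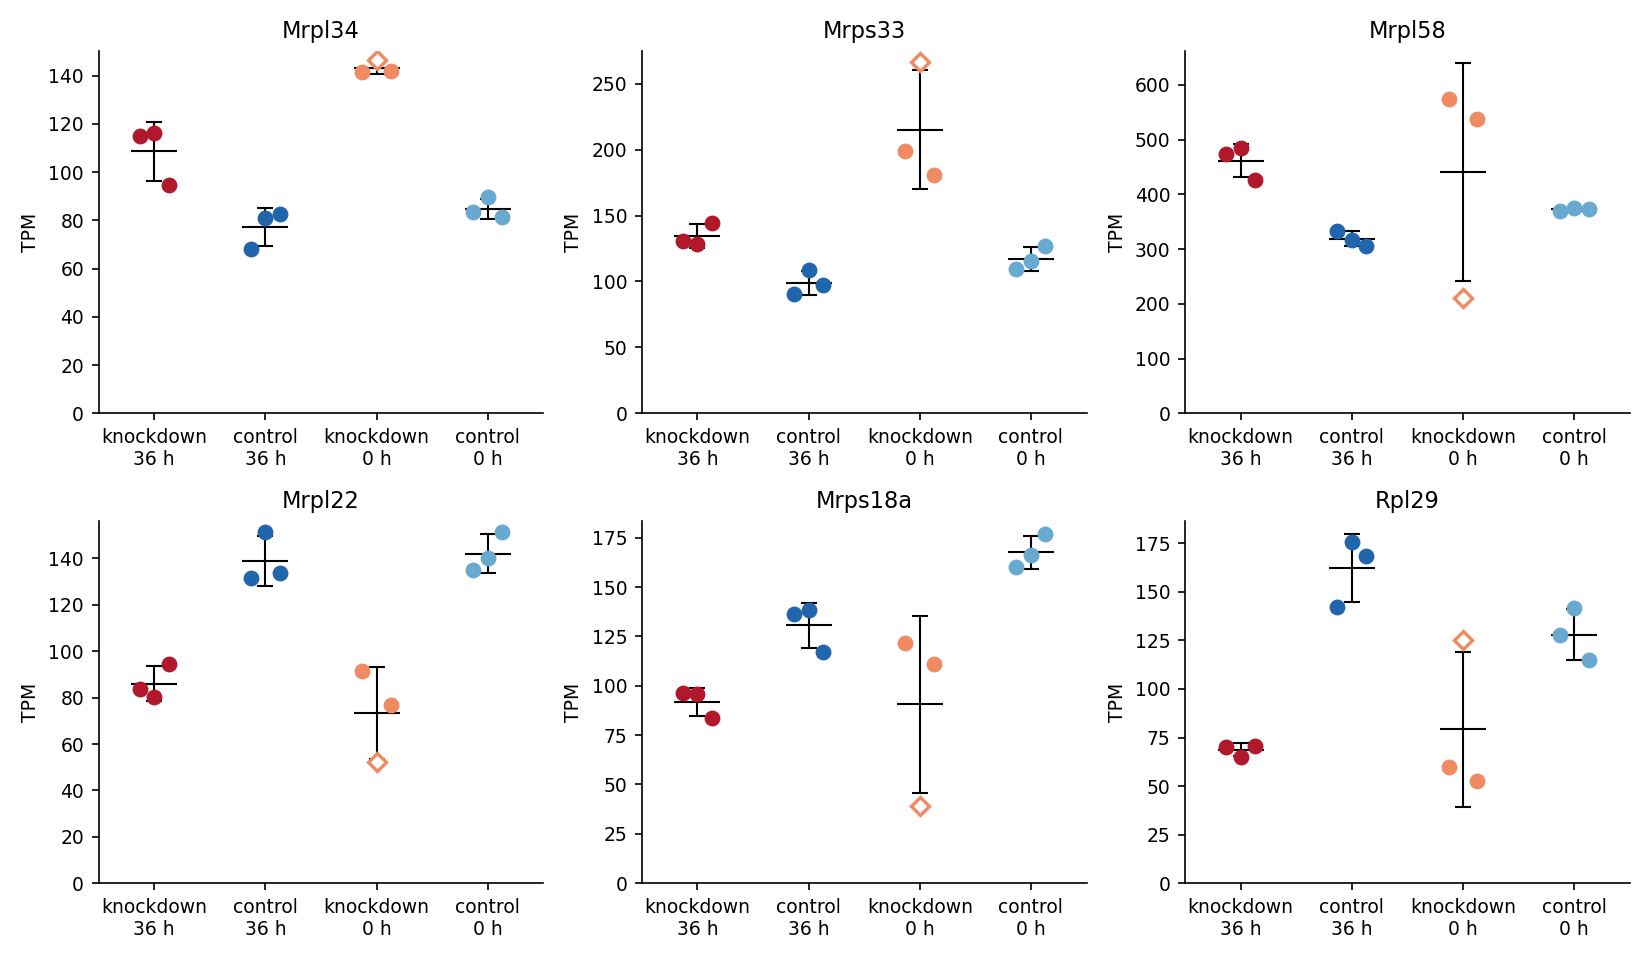
TPM of 6 members in each library by group, with bars for mean ± SD (n = 3) and the open diamond for knockdown 0 h library 2. Mrpl34 and Mrps33 lie higher in knockdown libraries at both times and Mrpl22 and Mrps18a lower, while Mrpl58 (210.9 TPM in library 2) lies higher, and Rpl29 (125 TPM in library 2) lower, at both times only with library 2 set aside.

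At 36 h 1 member passed in the fit of all 12 libraries, a cytosolic one, and 4 cytosolic and 18 mitochondrial members passed without knockdown 0 h library 2. In the fit of all 12 libraries 0 cytosolic members rose and 1 fell, and 0 mitochondrial members rose or fell, against 0.894% of all tested genes that rose and 1.64% that fell (limma). At an unadjusted p under 0.05 there were 0 higher and 2 lower in the cytosolic class, and 5 higher and 3 lower in the mitochondrial class, against 5.46% higher and 10.8% lower over all tested genes. The medians were −0.04 in cytosolic, 0.09 in mitochondrial and −0.09 in all tested genes. With median-of-ratios scaling the cytosolic median turned to 0.06, the mitochondrial one was 0.19 and that of all genes −0.00023.

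The 1 cytosolic fall at 36 h was Rpl29, a large subunit protein also described as binding heparan sulfate. It had 70.3, 65.0 and 70.9 TPM in knockdown libraries, against 142, 176 and 168 TPM in control libraries. At 0 h it had 59.7, 125 and 52.8 TPM in knockdown libraries, against 128, 141 and 115 TPM in control libraries. The 36 h groups are far apart, and at 0 h only library 2 of the knockdown reaches into the control range. The log2 change was −1.22 at 36 h (SE 0.282, adjusted p = 0.0470, limma) and −0.79 at 0 h (adjusted p = 0.0721, limma). The 36 h call held in 2 of the 12 fits that leave out 1 library, those without knockdown 0 h library 2 or 3. Without library 2 the changes were −1.22 (adjusted p = 1.4e-04, limma) and −1.17 (adjusted p = 2.3e-04, limma).

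The spread estimate is shared by all 12 libraries, so library 2 also bears on the tests at 36 h. Without it, 0 cytosolic members rose and 4 fell at 36 h (Rpl10, Rpl15, Rpl29 and Rpl7l1), and 14 mitochondrial members rose and 4 fell, against 7.01% of all tested genes that rose and 12% that fell. The 36 h changes themselves are those of the full fit. Called at both times in that fit were 11 mitochondrial rises, Mrpl11, Mrpl34, Mrpl38, Mrpl41, Mrpl46, Mrpl53, Mrpl54, Mrpl57, Mrpl58, Mrps33 and Mrps7, against 3.97% of all tested genes. Of these 11, only Mrpl34, Mrpl57 and Mrps33 were called at 0 h in the full fit, and none at 36 h, so the other calls depend on leaving library 2 out. In the full fit the 0 h changes of Mrpl38 and Mrpl46 were −0.13 and −0.03, and that of Mrps7 was 0.01. The 0 h changes of Mrps7, Mrpl58 and Mrpl11 also turned sign in at least 1 other setting. Called lower at both times were Mrpl22, Mrpl42 and Mrps18a in the mitochondrial class, and Rpl29 and Rpl7l1 in the cytosolic class, against 9.4% of all tested genes.

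Mrpl58 had 474, 484 and 427 TPM in knockdown libraries at 36 h, against 333, 317 and 306 TPM in control libraries. At 0 h it had 575, 211 and 537 TPM in knockdown libraries, against 370.5, 376 and 373 TPM in control libraries. Its changes were 0.53 at 36 h and 0.57 at 0 h without library 2 (adjusted p = 0.0012 and 0.0011, limma), and it passed at neither time in the full fit (adjusted p = 0.458 and 0.801). At 0 h its sign turned without knockdown library 1 (−0.15) or 3 (−0.10). Mrps18a, 1 of 3 mammalian relatives of bacterial S18 and located in the large subunit, had 96.2, 95.7 and 83.5 TPM in knockdown libraries at 36 h, against 136, 138 and 117 TPM in control libraries. At 0 h it had 122, 39.4 and 111 TPM in knockdown libraries, against 160.4, 166 and 177 TPM in control libraries. The groups do not overlap at either time, and its 36 h change of −0.50 passed without library 2 (adjusted p = 0.0059, limma) and not in the full fit (adjusted p = 0.553).

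The other S18 relatives and Mrpl12 did not pass at 36 h with or without library 2. Mrps18b had 77.7, 69.8 and 78.8 TPM in knockdown libraries at 36 h, against 88.6, 92.0 and 92.4 TPM in control libraries, and Mrps18c had 185, 214 and 223 TPM against 177, 213 and 198 TPM. Mrpl12, the mitochondrial stalk protein that also binds the mitochondrial RNA polymerase, had 397, 391 and 342 TPM in knockdown libraries at 36 h, against 321, 323 and 304 TPM in control libraries. Mrps18b lay lower and Mrpl12 higher in every knockdown library, and the Mrps18c groups overlap. Whether the relatives differ in their change was not tested.

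Rpl7l1 is a paralog of Rpl7. It had 94.4, 96.8 and 75.9 TPM in knockdown libraries at 36 h, against 140.3, 117 and 119 TPM in control libraries. At 0 h it had 90.2, 16.9 and 87.0 TPM in knockdown libraries, against 125, 119 and 133 TPM in control libraries. Rpl7 had 692, 716 and 728 TPM in knockdown libraries at 36 h, against 662, 767 and 761 TPM in control libraries. The Rpl7l1 groups do not overlap at either time, although its falls passed only without library 2 (adjusted p = 0.0132 at 36 h and 0.0180 at 0 h, limma). Whether the paralogs differ in their change was not tested.

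Members can also be counted by whether the 3 knockdown libraries lie apart from the 3 control libraries. At 0 h, 41 of 83 cytosolic and 17 of 78 mitochondrial members were higher in every knockdown library than in every control library, against 7.24% of all tested genes. At 36 h these counts were 3 and 29, against 14.8%. Lower in every knockdown library were 1 cytosolic and 7 mitochondrial members at 0 h, against 30.7%, and 9 and 10 members at 36 h, against 22%.

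At both times 3 cytosolic members (Rps14, Rpl36 and Rpl13a) and 11 mitochondrial members were higher without overlap, against 3.51% of all tested genes. The mitochondrial ones were Mrpl34, Mrpl36, Mrpl53, Mrpl54, Mrpl57, Mrps5, Mrps14, Mrps16, Mrps21, Mrps28 and Mrps33. Lower at both times were Rpl7l1 and, in the mitochondrial class, Mrpl22, Mrpl42, Mrpl50 and Mrps18a, against 15.1% of all tested genes. The 0 h and 36 h changes come from separate libraries, and across members their Pearson r was 0.57 in the cytosolic and 0.61 in the mitochondrial class, or 0.80 over 82 and 0.75 over 78 genes without library 2. Genes are not independent replicates, so these r describe the members only.

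**Figure D5:**
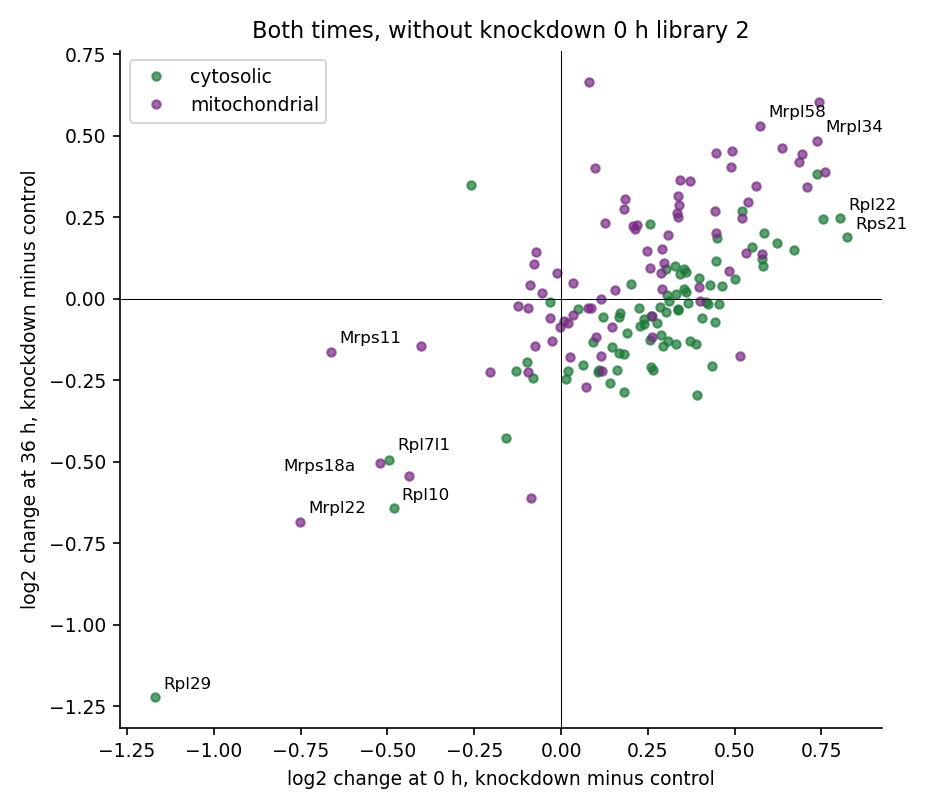
Log2 change of each member at 0 h (x axis) and at 36 h (y axis), knockdown minus control, on the log2(TPM + 1) scale without knockdown 0 h library 2. Rpl29 lies lowest on both axes (−1.17 and −1.22), and most cytosolic points lie right of 0 but near 0 on the 36 h axis (medians 0.30 and −0.04).

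Over time no member passed the test in the full fit. In the knockdown, 36 h minus 0 h, 0 members of either class rose or fell (limma), against 0.998% of all tested genes that rose and 0.125% that fell; at an unadjusted p under 0.05, 5 cytosolic members were lower, and 2 mitochondrial members were higher and 7 lower, against 13.3% and 3.09%. In control, 0 members rose or fell (limma), against 0.25% and 0.111%, and 1 cytosolic member was higher at an unadjusted p under 0.05, against 3.15%. The cytosolic median was −0.42 in the knockdown, or −0.02 without library 2, and 0.29 in control. The mitochondrial median was 0.14 in the knockdown, or −0.15 without library 2, and −0.02 in control. Over all tested genes it was 0.33 in the knockdown, or 0.07 without library 2, and −0.01 in control.

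In the knockdown 0 cytosolic and 4 mitochondrial members were higher in every 36 h library than in every 0 h library, against 15% of all tested genes, and 13 and 9 were lower, against 3.91%. In control 13 and 8 were higher, against 9.55%, and 0 and 13 lower, against 12.3%. The difference of the 36 h changes between knockdown and control was past the threshold in 0 members and in 0% of all tested genes (limma), with 3 cytosolic and 2 mitochondrial members lower at an unadjusted p under 0.05, against 1.34%. Its median was −0.74 in cytosolic, 0.15 in mitochondrial and 0.34 in all tested genes, and −0.33, −0.10 and 0.09 without library 2. With median-of-ratios scaling the mitochondrial median turned to −0.22 in the knockdown over time and to −0.21 for the difference. In control it turned to 4.6e-04 when TPM were rescaled without mitochondrially encoded genes.

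Ribosome biogenesis genes had a lower median at 0 h than the ribosomal proteins. Of 30 ribosome biogenesis and RNA polymerase I genes 1 rose and 3 fell, against 3.1% and 14.6% of all tested genes. Their median was −0.72, −0.22 without library 2 and −0.28 with median-of-ratios scaling, beside −0.41, −0.17 and −0.02 over all tested genes. The falls were Nop58 (−1.39, adjusted p = 0.0028), Nop56 (−1.59, adjusted p = 0.0256) and Dkc1 (−1.48, adjusted p = 0.0235), core proteins of small nucleolar RNPs, and the rise was Nop10 (0.84, adjusted p = 0.0225), a small partner of Dkc1 (limma). Nop58 had 39.7, 34.2 and 47.7 TPM in knockdown libraries at 0 h, against 116, 122 and 86.6 TPM in control libraries. Those groups do not overlap. Without library 2 the changes were −1.28 in Nop58, −0.96 in Nop56, −0.95 in Dkc1 and 0.63 in Nop10, and all 4 passed again (limma).

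The same shares of all tested genes, 3.1% that rose and 14.6% that fell, stand beside the counts of the next lists at 0 h, and 7.28% and 30% beside those at an unadjusted p under 0.05. Of 32 cytosolic translation factors 0 rose and 3 fell (limma), with a median of −0.24 that turned to 0.22 with median-of-ratios scaling. Of 13 mitochondrial translation factors 0 rose or fell (limma; 1 higher and 4 lower at an unadjusted p under 0.05), with a median of −0.55, −0.04 without library 2 and −0.15 with median-of-ratios scaling. Of 19 mitochondrial ribosome assembly genes 0 rose or fell (limma; 0 higher and 2 lower at an unadjusted p under 0.05), with a median of −0.42 that turned to 0.12 without library 2 and to 0.01 with median-of-ratios scaling. Of 15 genes listed as regulators, not all of them of ribosomal protein genes, 0 rose and 4 fell: Mdm2, Myc, Pprc1 and Rps6kb1 (limma). The median of this list was −0.46, −0.25 without library 2 and −0.02 with median-of-ratios scaling, under which 2 fell. Myc, a transcription factor known to drive ribosomal protein genes, had 32.5, 8.10 and 41.2 TPM in knockdown libraries at 0 h, against 84.5, 73.5 and 89.3 TPM in control libraries (−1.83, adjusted p = 0.0202, limma), and its change was −1.15 without library 2 (adjusted p = 6.9e-04, limma). At 36 h it had 40.1, 46.2 and 37.9 TPM in knockdown libraries, against 90.7, 72.8 and 83.9 TPM in control libraries, a change of −0.98 that passed without library 2 (adjusted p = 0.0011, limma) and not in the full fit (adjusted p = 0.307, limma). In both comparisons every knockdown library lay below every control library.

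Nuclear-encoded respiratory chain genes, listed by the start of their symbols, had a median above 0 at both times. At 0 h 39 of 100 tested rose and 1 fell (median 0.48), against 3.1% and 14.6% of all tested genes. Without library 2, 58 of 99 rose and 1 fell (median 0.44), against 6.84% and 16.8%. At 36 h 3 rose and 0 fell (median 0.22), against 0.894% and 1.64%, and without library 2 there were 33 rises and 3 falls, against 7.01% and 12%. The 15 tested mitochondrially encoded genes had a median of 0.95 at 0 h, or 0.22 without library 2. The 70 tested ribosomal protein pseudogene rows had a median of 0.83 at 0 h with 4 rises and 0 falls (limma), and 0.24 without library 2. Among 2416 tested genes shorter than 1000 bases that are no members, 234 rose and 97 fell at 0 h (median 0.28, or 0.20 without library 2). The shares of all tested genes at 0 h, 3.1% and 14.6%, apply to both counts, which are those of the full fit. Without library 2, 323 of 2276 such short genes rose and 124 fell at 0 h (limma), against 6.84% and 16.8% of all tested genes. The part of length in the rise of the members was not tested.

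Some ribosomal proteins have names outside the rule. Fau, which encodes a small subunit protein fused to a ubiquitin-like domain, passed at 0 h with a change of 0.91 (adjusted p = 0.0319, limma), or 0.58 without library 2 (adjusted p = 0.0101, limma). Fau had 839, 1738 and 907 TPM in knockdown libraries, against 593, 666 and 505 TPM in control libraries, with no overlap. Rpl36al and Rack1 did not pass, with changes of 0.36 and 0.86, and 0.32 and 0.0019 without library 2. Rack1 had 391, 2052 and 301 TPM in knockdown libraries at 0 h, against 349, 378 and 306 TPM in control libraries, so library 2 alone stood above the control range by a wide margin. Of Dap3, Ptcd3, Aurkaip1, Chchd1 and Gadd45gip1 only Ptcd3, a small subunit protein of the mitochondrial ribosome, passed at 0 h (−1.01, adjusted p = 0.0233, limma), with −0.69 without library 2.

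The genes whose levels ran most like the class sums were drawn from 10108 tested genes outside the classes with a mean of at least 5 TPM, by Pearson r of log2(TPM + 1) over the 12 libraries. Most like the cytosolic sum were Rps18-ps5 (r = 0.977), a row without a symbol, Eef1b2 (r = 0.972) and Gm36220 (r = 0.972). Without library 2 these r were 0.81 to 0.84. Most like the mitochondrial sum were Bnip3 (r = 0.967), Ssu72, Bax, Ndufa8 and Acot13 (r = 0.953), with r of 0.936 to 0.967 without library 2. These values are descriptions over libraries that share groups.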

How the data were processed

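The 12 stranded mRNA libraries of HC11 cells were grouped by title. The deposited table holds TPM per gene from the authors, with a gene length in bases. Build GRCm39 and the tools DESeq2, HTSeq, HISAT2 2.2.1, cutadapt 1.9.1 and FastQC are listed, per the submitters' processing notes, without roles. TPM keep no read counts, so depth is unknown and no counting error is given. The authors' group means were not used: recomputed within 1e-04 TPM, that of control 36 h covers 2 of its 3 libraries. The library left out of it, library 4, is repeated alone in a column of its own.

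The 14426 genes that reached 1 TPM in 3 or more libraries were fitted as log2(TPM + 1) in limma 3.58.1 (R 4.3.3) with 1 mean per group and a variance trend, two-sided, with Benjamini-Hochberg adjustment over all genes in each comparison and a threshold of 0.05. Adding 1 understates changes of low genes. The fit was tested on simulated data. Members and lists were chosen with earlier results of these data known.

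Named genes were, per comparison and class, up to 5 rises and 5 falls whose higher group averaged 5 TPM or more, the 3 highest and 3 lowest members, paralog pairs and stalk, 5S-binding and S18-related proteins. Other members named were chosen after their values were seen. Single results on a few genes are not reported here, but these genes stay in the counts, medians and sums. Alternatives were another pseudocount (0.1), no filter or one of 5 TPM, other scalings, robust variance, only the groups compared, a replicate block and leaving libraries out. Promoter sequences are RefSeq's (GRCm38.p6), a build other than that of the table, and were matched by symbol. Protein sequences were not used here.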

Additional observations from a re-analysis of the deposited data

How the results depend on the processing

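At 0 h the number of cytosolic members called (9 in the full fit) was 0 with no filter and with only the groups compared, and 21 with median-of-ratios scaling and knockdown 0 h library 2 left out; leaving out 1 library gave 0 to 40. Mitochondrial calls at 0 h (8) were 5 with no filter, 27 with median-of-ratios scaling (26 higher), 14 rescaled without mitochondrially encoded genes, 13 rescaled without ribosomal protein genes, 0 with only the groups compared, 30 without library 2 with median-of-ratios scaling and 23 without knockdown 0 h libraries 2 and 3, a choice made after seeing the data; leaving out 1 library gave 1 to 31. At 36 h cytosolic calls (1) were 0 with a pseudocount of 0.1, no filter, median-of-ratios scaling or either rescaling, 5 with only the groups compared, 3 without library 2 with median-of-ratios scaling and 4 without libraries 2 and 3; leaving out 1 library gave 0 to 4. Mitochondrial calls at 36 h (0) were 2, 13, 16 and 20 with median-of-ratios scaling, only the groups compared, library 2 left out with median-of-ratios scaling and libraries 2 and 3 left out; leaving out 1 library gave 0 to 18. Over time, leaving out 1 library gave 0 to 1 cytosolic calls in control and in the knockdown, and 0 to 2 mitochondrial calls in the knockdown. The causes were not tested. No member called in the full fit changed sign in any of these alternatives. Of the 23 mitochondrial members called at 0 h only without library 2, 10 changed sign in at least 1 other setting, and 0 of 9 such cytosolic members did. Over all genes at 0 h the calls were 447 higher and 2103 lower, against 1115 and 1566 with median-of-ratios scaling.

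With the replicate number as a block, calls numbered 2 cytosolic and 1 mitochondrial at 0 h and 0 cytosolic at 36 h. Libraries with the same number did not deviate together (r of −0.29 to 0.13 over 15 pairs, against −0.24 to 0.25 over 39 pairs with other numbers). With so few libraries per group, these r cannot tell whether libraries of the same number share a culture or preparation. Control 36 h library 4 stands alone in its block. Depth is unknown, which limits what the members with low TPM can show.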
